A study of Mus musculus with 3 samples.

Results

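The cells described here are dividing thymocytes that carried transcripts of the G2 and M phases of the cell cycle, in droplet single-cell RNA libraries of the thymus from female mice of 4 weeks, with 1 library for each of 3 germline p53 genotypes. The genotypes were p53+/- (1 allele lacking), p53 AD/- (a null allele together with an allele that the labels call AD and the series title links to p53 dimers) and p53-/- (no functional allele), so at least 1 null allele was present in every animal. Strain was labelled 50% BALB/C - 50% C57BL6 for p53+/-, 50% BALB/C - 50% C57BL7 for p53 AD/- and 50% BALB/C - 50% C57BL8 for p53-/-, and the design text calls the first group wild type although its label is p53+/-. No group had a replicate. Differences between genotypes were therefore also differences between single libraries, and no p-value is given. Every interval printed is an exact 95% interval and reflects only the error of counting.

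Cells were kept with at least 500 detected genes and under 10% of unique molecular identifiers (UMIs, which count captured RNA molecules) from mitochondrial genes. Mitotic thymocytes were those with at least 3 UMIs of Mki67 plus Top2a, at least 5 UMIs of Ccnb1, Ccnb2, Cdc20, Ube2c and Plk1 together (the mitotic sum), at least 1 UMI of Cd8a plus Cd8b1, at most 1 UMI each of Ms4a4b and Il2ra, and 0 of Foxp3. The last conditions kept out mature, early double negative and regulatory T cells. The rule selected 685 of 8150 cells in p53+/-, 520 of 6171 in p53 AD/- and 1181 of 9543 in p53-/-, in all 2386 of 23864 cells. Cells with a mitotic sum of 5 or 6, just inside the limit, numbered 59, 27 and 91 in that order and held 139, 120 and 207 CPM (UMIs of a gene per 1000000 UMIs of the summed cells) of Cenpf, whereas cells with a sum of 3 or 4, just outside, held 97.8, 78.1 and 93.3 CPM.

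Entry into mitosis is driven by Cdk1 bound to B-type cyclins, and its genes are switched on together late in the cycle by the MuvB complex with B-Myb and FoxM1. Polo-like and Aurora kinases then build the spindle, kinetochores tie chromosomes to it, and the anaphase-promoting complex with its activator Cdc20 destroys cyclin B and securin to end mitosis. In the thymus, most division follows beta-selection, when a working T cell receptor beta chain lets early cells proliferate as they gain CD8 and CD4 and become small resting double positive cells. p53 takes part in the checkpoint at this stage, and p21, the product of Cdkn1a, is its best known brake on cyclin-dependent kinases.

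The mitotic cells were large in RNA terms. Their median was 13880 UMIs and 3457 genes in p53+/-, 11236 and 2983 in p53 AD/-, and 11776 and 3287 in p53-/-, which was 4.96, 5.39 and 5.01 times the median UMIs of non-cycling cells that passed the same lineage conditions. The p53 AD/- library stood apart from the other two: its mitotic cells had a median of 2.25% mitochondrial UMIs against 3.49% and 3.24%, and 19.8% of its non-cycling cells held under 1% of the nuclear RNA Malat1, against 0.663% and 0.799%. Summed mitotic cells gave 11772218, 7454120 and 17673297 UMIs. Between 15 and 29 cell barcodes were shared by each pair of libraries, and 0 of them were mitotic in both. Trp53 was counted at 73.8, 69.2 and 65.6 CPM in the mitotic cells of p53+/-, p53 AD/- and p53-/-, so its level did not separate the null library from the others. The sources used here do not say whether the counted tags lie outside the altered stretch of the gene, so the count does not check the labels.

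A few selected cells carried RNA of other blood lineages. Cells with 10 or more UMIs of erythroid, granulocyte or macrophage, B cell or dendritic, or stromal markers numbered 9, 2 and 9 in p53+/-, p53 AD/- and p53-/-. The 10 granulocyte and macrophage markers summed to 476, 10.6 and 1457 CPM, and 1 cell held 95.8% of those UMIs in p53+/- while 5 cells held 98.7% in p53-/-. S100a9, a granulocyte alarmin in this list, was at 224, 0.402 and 706 CPM. The 10 erythroid markers summed to 11, 6.04 and 5.66 CPM, with 3, 5 and 2 of them at 0. The 10 B cell and dendritic markers, of which the heavy chain gene Ighm is also read in thymocytes, summed to 358, 312 and 381 CPM with 0, 3 and 0 at 0, and the 11 epithelial and stromal markers to 39.2, 35.4 and 41.6 with 2, 3 and 3 at 0. Among other thymocytes, 11 markers of mature cells summed to 284, 199 and 300 CPM, 9 of early double negative cells to 34.2, 34.7 and 72.3, and 10 of regulatory, gamma-delta and innate-like cells to 307, 370 and 354. All values below include these cells unless stated, and values without them are given where they matter.

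The label was checked on markers outside the rule. Cenpf, a kinetochore protein that accumulates in G2, stood at 728, 711 and 790 CPM in the mitotic cells of p53+/-, p53 AD/- and p53-/- and was 6.33, 6.71 and 5.89 log2 units above non-cycling cells of the same library. Of 150 genes in 7 lists of mitosis genes, leaving out those of the rule, 143, 142 and 144 were higher in mitotic than in non-cycling cells, with median log2 ratios of 4.29, 4.30 and 3.92. The kinase Cdk1 was at 275, 330 and 301 CPM against 4.87, 1.45 and 7.0 CPM in non-cycling cells. Because the cells were chosen on genes of this program, these ratios describe the choice and were not tested. The matching share over all genes was not computed.

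A sharper contrast is with cells chosen on genes of S phase. As S-phase comparison cells, 134, 100 and 193 cells were taken that met the same lineage conditions, held at least 5 UMIs of Mcm5, Mcm6, Pcna, Gins2 and Ung together and had a mitotic sum of at most 1. Mki67 and Top2a were not asked of them, and cells with RNA of other lineages were not left out of this group. Its B cell and dendritic markers summed to 1352, 3817 and 291 CPM. Its granulocyte and macrophage markers summed to 129, 331 and 1879 CPM, and its mature thymocyte markers to 588, 1242 and 500. Cytokinesis and chromosomal passenger genes were 2.34, 2.55 and 2.02 log2 units higher in mitotic than in S-phase comparison cells (15 of 15 genes past 1.5-fold in each library). Kinesin and spindle genes were 2.27, 2.40 and 2.20 higher. Birc5, the survivin subunit of the passenger complex, was 2.39, 2.55 and 2.23 log2 units higher, and Prc1, which bundles the central spindle, 2.23, 2.54 and 2.18. S-phase and replication genes, in contrast, were a median of 0.70, 0.78 and 0.76 log2 units lower than in S-phase comparison cells, yet remained 3.40, 3.35 and 3.43 log2 units above non-cycling cells, with 52 of 52 genes past 1.5-fold in each library. The selected cells thus still held replication transcripts above the level of non-cycling cells, which were chosen to hold at most 1 UMI of these 5 S-phase genes. Both comparison groups were chosen on genes of these programs, so the ratios describe the choice and were not tested. For the counts past 1.5-fold against these groups, the share over all genes was not computed. Replication-dependent histone genes were 0.66, 0.99 and 0.75 log2 units higher than in S-phase comparison cells.

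**Figure D1:**
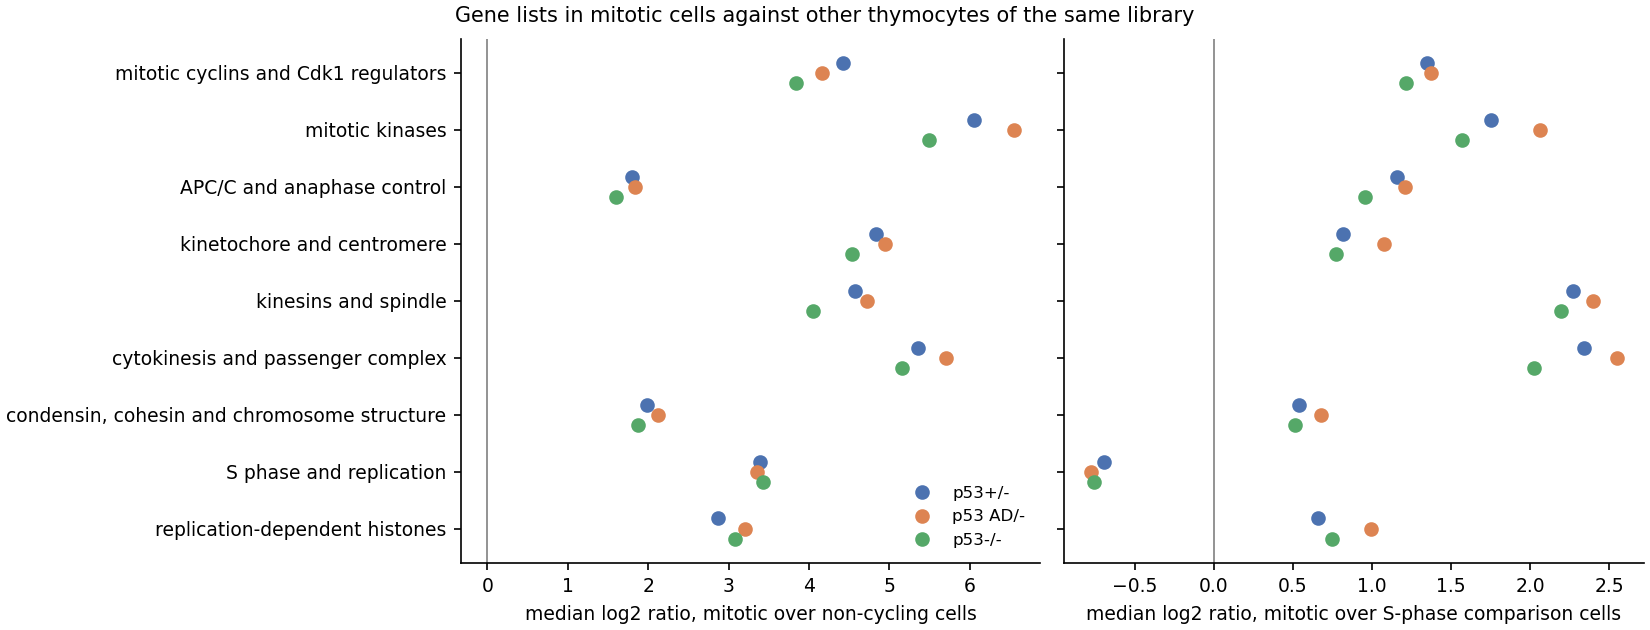
Median log2 ratio of each gene list in mitotic cells over non-cycling cells (left) and over S-phase comparison cells (right) of the same library, with 1 point per library. Every mitosis list lies to the right of 0 over non-cycling cells, cytokinesis and passenger genes at 5.16 to 5.71 there, and S-phase genes lie at 3.35 to 3.43 on the left but at -0.78 to -0.70 on the right.

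The promoters of the 7 cycling and mitotic genes of the rule, and of Cenpf, are shown to let a reader see the sequence before the genes by which the cells were chosen. That these genes are high together is fixed by the choice of cells. Each sequence is the 110 bases just before the start site in RefSeq on build GRCm38.p6, written 5′ to 3′ on the strand of the gene, with the letters of the motifs TTTGAA (the cell cycle homology region, bound by MuvB), TTCGAA (its variant) and CCAAT (bound by NF-Y) in capitals, as are their reverse complements TTCAAA and ATTGG. Ccnb1 and Ccnb2 encode the mitotic B cyclins (chr13:100786487-100786596 and chr9:70421555-70421664, both minus strand), Cdc20 the activator of the anaphase-promoting complex (chr4:118437344-118437453, minus strand), Ube2c its ubiquitin-conjugating enzyme (chr2:164769819-164769928, plus strand) and Plk1 the polo-like kinase (chr7:122159325-122159434, plus strand). Mki67 encodes a coat protein of mitotic chromosomes (chr7:135716380-135716489, minus strand), Top2a the topoisomerase that untangles sister chromatids (chr11:99024190-99024299, minus strand), and Cenpf is at chr1:189688087-189688196 on the minus strand.
Ccnb1: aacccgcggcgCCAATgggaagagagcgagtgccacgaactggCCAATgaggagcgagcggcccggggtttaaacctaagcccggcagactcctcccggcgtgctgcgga
Ccnb2: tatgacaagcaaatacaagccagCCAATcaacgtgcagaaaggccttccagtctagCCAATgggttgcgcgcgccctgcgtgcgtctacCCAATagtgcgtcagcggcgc
Cdc20: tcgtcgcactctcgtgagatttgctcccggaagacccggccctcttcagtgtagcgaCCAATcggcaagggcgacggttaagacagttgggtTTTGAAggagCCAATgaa
Ube2c: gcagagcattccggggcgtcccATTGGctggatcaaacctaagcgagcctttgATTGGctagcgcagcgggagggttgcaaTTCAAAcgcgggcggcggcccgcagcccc
Plk1: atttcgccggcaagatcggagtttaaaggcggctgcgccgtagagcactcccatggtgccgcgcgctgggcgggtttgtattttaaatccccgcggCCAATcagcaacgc
Mki67: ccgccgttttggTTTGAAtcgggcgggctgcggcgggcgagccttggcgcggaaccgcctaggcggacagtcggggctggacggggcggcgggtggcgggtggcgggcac
Top2a: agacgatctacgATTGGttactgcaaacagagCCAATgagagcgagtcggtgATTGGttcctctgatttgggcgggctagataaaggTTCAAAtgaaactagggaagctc
Cenpf: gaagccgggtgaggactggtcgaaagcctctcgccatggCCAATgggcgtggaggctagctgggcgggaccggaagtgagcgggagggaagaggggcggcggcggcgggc
CCAAT stands on one strand or the other in 7 of these 8 windows and not in that of Mki67. TTTGAA stands in those of Cdc20, Ube2c, Top2a and Mki67. Over the nearest 100 bases, CCAAT was found on either strand in 57.5% of 127 matched mitosis genes and in 21.6% of 27025 RefSeq promoters, TTTGAA in 22.0% and 6.76%, and TTCGAA in 2.36% and 0.437%. A match describes letters and not a bound site.

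To describe how mitotic cells vary among themselves, in each library they were ranked by mitotic sum per 10000 UMIs and split into 3 groups of equal size (low, middle and high), leaving out the cells with RNA of other lineages. The lower dividing value was 12.1, 18.3 and 13.4 for p53+/-, p53 AD/- and p53-/-, and the upper one 25.3, 36.5 and 28.2. The split uses genes of the rule and is a range and not a set of cell types: 42, 21 and 79 cells lay within 10% of the lower value and 60, 53 and 98 within 10% of the upper one. Several genes of G2 and mitosis were higher from group to group. Cenpf went from 236 to 721 to 1496 CPM in p53+/-, from 274 to 727 to 1412 in p53 AD/-, and from 285 to 783 to 1694 in p53-/-. Tuba1c, an alpha-tubulin, was 3.41, 3.93 and 3.94 log2 units higher in the high than the low group, Cdc25b, the phosphatase that starts Cdk1 activation, 3.18, 2.79 and 3.18, and Cenpa, the centromeric histone, 2.36, 2.49 and 2.46. Aspm at spindle poles and Pttg1, the securin that holds sister chromatids together, followed the same order in all 3 libraries.

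Genes of the G1/S switch went the other way. Ccne2, a cyclin that starts S phase, was at 128, 35.1 and 4.93 CPM in the low, middle and high groups of p53+/-, at 135, 29.8 and 3.34 in p53 AD/-, and at 187, 42.1 and 9.89 in p53-/-. Ung, which removes uracil from DNA, was 4.06, 4.51 and 4.21 log2 units lower in the high group, and the replication licensing factor Cdc6 2.47, 2.78 and 2.54 lower. Of 51 S-phase genes, 49 were lower in the high group in all 3 libraries, and 24 of 27 genes of nucleotide and one-carbon synthesis were too. Kinesin and spindle genes were higher in all 3 for 32 of 33 and cytokinesis genes for 15 of 15, where among 7549 genes 3575 were higher and 2109 lower in all 3. In these genes the low group lay nearest to the S-phase comparison cells and the high group farthest from them. Ung was among the genes that chose the S-phase comparison cells. Median UMIs were 16365, 13451 and 14927 in the low groups and 11781, 9269 and 9314 in the high groups, while the median Malat1 share was 0.541%, 0.552% and 0.709% in the low and 1.72%, 1.89% and 2.25% in the high groups. The part of these depth differences in the gene values was not tested.

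**Figure D2:**
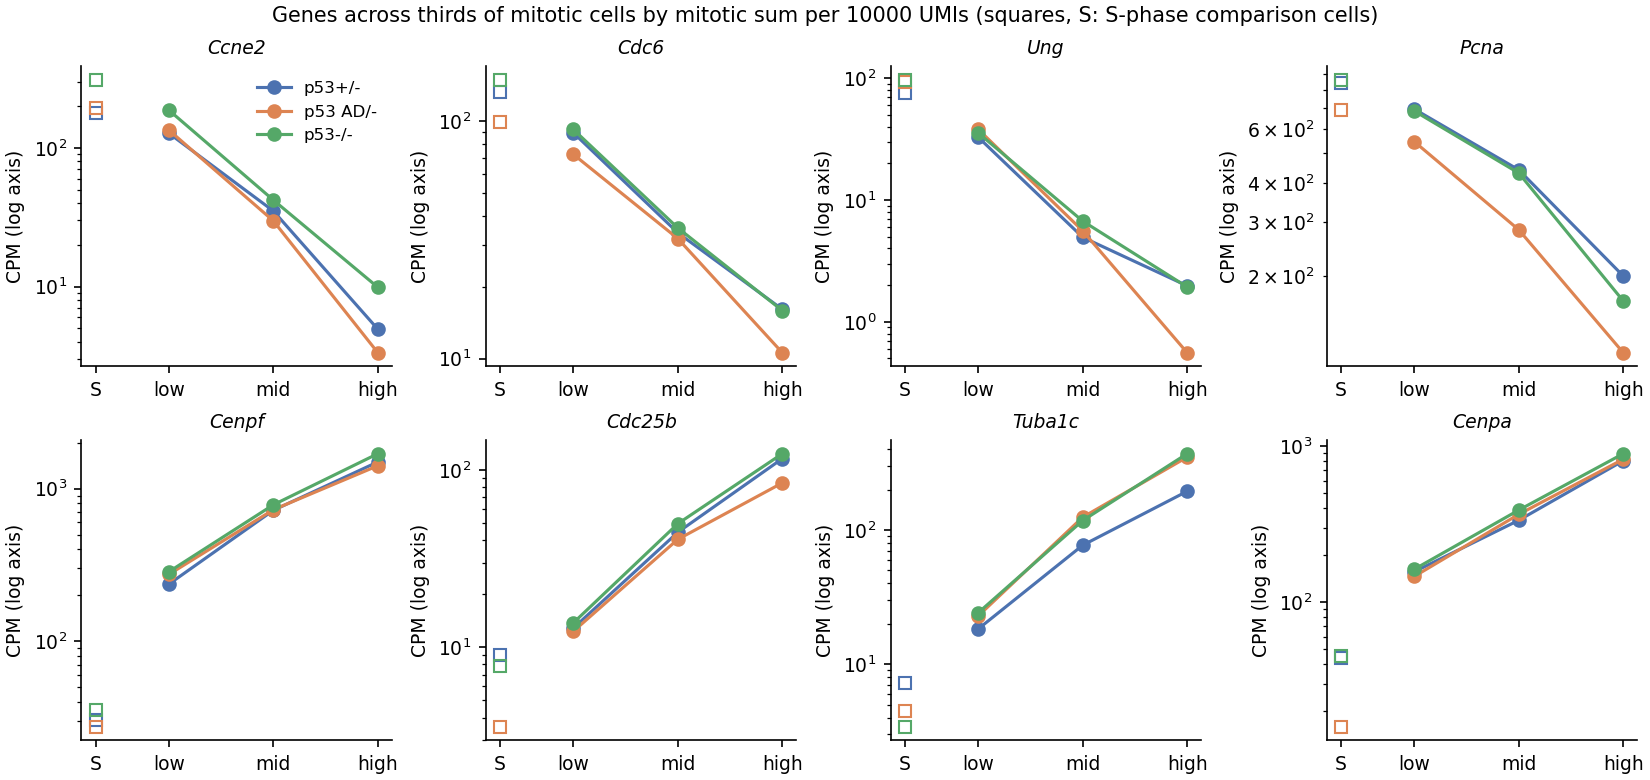
Summed CPM (log axis) of 4 genes of S phase or its start (top) and 4 mitotic genes (bottom) in S-phase comparison cells (open squares) and in the low, middle and high groups of mitotic cells (filled points), by library. In every library the upper genes decline and the lower genes climb from low to high, with Ccne2 reaching 3.34 to 9.89 CPM and Cenpf 1412 to 1694 CPM.

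The share of cells that the rule selected, called mitotic here, was highest in the p53-/- library. Their low group still held S-phase transcripts, so this is not a share of cells in mitosis alone. Mitotic cells made up 8.40% of cells in p53+/- (7.81 to 9.03), 8.43% in p53 AD/- (7.75 to 9.15) and 12.4% in p53-/- (11.7 to 13.1), and the last interval did not overlap the others. All cycling cells under the same lineage conditions came to 11.7%, 11% and 16.6%. Among cycling cells, the mitotic share was 71.9% (68.9 to 74.7), 76.9% (73.6 to 80.0) and 74.5% (72.2 to 76.6), and each of these intervals overlapped the others. With a mitotic sum of at least 8 this share was 62.4%, 70.9% and 65.3%, and after thinning 47.1%, 58.4% and 52.5%, with p53 AD/- highest in each form.

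The rule counts raw UMIs, and the place of p53 AD/- changed with the cells over which the share was taken. With each cell thinned to 3000 UMIs and shallower cells left out, the share was 7.41% (6.67 to 8.20) in p53+/-, 13.1% (11.8 to 14.5) in p53 AD/- and 13.3% (12.4 to 14.3) in p53-/-, against 14.6%, 21.6% and 24.0% in the same cells before thinning. Cells under 3000 UMIs, which were left out, were 42.9%, 61.2% and 48.6% of cells and included 3, 2 and 3 mitotic cells. Leaving them out already placed p53 AD/- above p53+/- before thinning. Set over all filtered cells, the thinned shares were 4.23% (3.81 to 4.69), 5.07% (4.54 to 5.65) and 6.84% (6.34 to 7.37). So p53-/- lay above p53+/- in each form, while p53 AD/- lay level with p53+/-, level with p53-/- or between them.

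**Figure D3:**
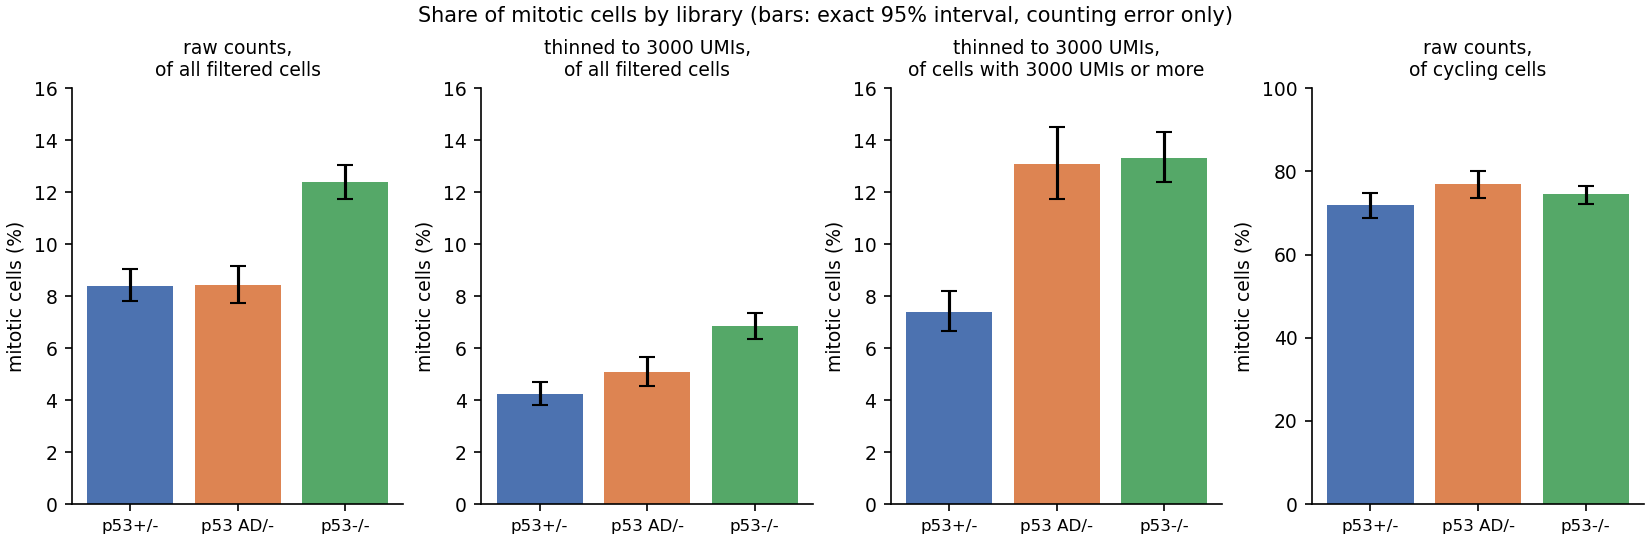
Percent of mitotic cells in each library with exact 95% intervals (bars from 0), from left to right of all filtered cells, after thinning to 3000 UMIs over all filtered cells, after thinning over cells of at least 3000 UMIs, and of cycling cells. p53-/- is above p53+/- in the first 3 panels, whereas p53 AD/- changes place between them.

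The median mitotic sum per cell was 26, 33 and 24 UMIs for p53+/-, p53 AD/- and p53-/-, with middle 50% ranges of 12 to 48, 16 to 52.3 and 12 to 43 that overlap widely, and after thinning the median was 5, 8 and 6. Cdc20 was at 206, 312 and 231 CPM and Plk1 at 107, 166 and 124 CPM, so that p53 AD/- was 0.60 (0.51 to 0.68) and 0.63 (0.52 to 0.75) log2 units above p53+/-. Of 13 other settings tried, Cdc20 passed 1.5-fold in 7 and Plk1 in 10. Ccnb1 at 164, 225 and 196 CPM, Ccnb2 at 324, 410 and 365 and Ube2c at 1036, 1467 and 1072 were also highest in p53 AD/-, by less than 1.5-fold. Mki67, which coats mitotic chromosomes, was instead lowest there, at 1168, 766 and 1352 CPM, and Top2a stood at 1842, 1801 and 2257 CPM, so the genes of the rule did not share 1 order. These genes chose the cells and are given as a description.

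Across all genes the p53 AD/- library differed in a way that followed transcript length. Past 1.5-fold in summed CPM, among genes with at least 100 UMIs over a pair of libraries, lay 3.3% higher and 14.5% lower of 8245 genes for p53 AD/- over p53+/-, 3.21% higher and 0.935% lower of 9195 for p53-/- over p53+/-, and 2.46% higher and 22.7% lower of 8891 for p53 AD/- over p53-/-. The 3 comparisons share libraries. With trimmed-mean (TMM) scaling the counts for the pairs with p53 AD/- were 496 higher and 773 lower, and 579 and 1124, in place of 272 and 1194, and 219 and 2019. The median of all genes was -0.14, 0.09 and -0.24 log2 units in that order, and list medians below should be read against it. For p53 AD/- over p53+/- the median went from 0.14 in the quartile of genes with the shortest transcripts through -0.02 and -0.21 to -0.43 in the longest, and for p53 AD/- over p53-/- from 0.08 to -0.55, whereas for p53-/- over p53+/- it stayed between 0.05 and 0.10. Non-cycling cells of the same libraries showed the same slope, at 0.24 to -0.31 for p53 AD/- over p53+/-. Its part in the gene differences below was not tested.

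In CPM, mitosis genes had medians close to 0 in each pair, which lay above the median of all genes in the pairs with p53 AD/-. With TMM scaling the medians were 0.16 for p53 AD/- over p53+/-, -0.0019 for p53-/- over p53+/- and 0.20 for p53 AD/- over p53-/-. Of 157 mitosis genes, 9 were higher and 9 lower past 1.5-fold in p53 AD/- than p53+/-, 2 higher and 0 lower in p53-/- than p53+/-, and 3 higher and 12 lower in p53 AD/- than p53-/-, with medians of 0.04, 0.08 and -0.0047, beside 3.3% higher and 14.5% lower, 3.21% and 0.935%, and 2.46% and 22.7% of all genes tested. Kinetochore and centromere genes, and cytokinesis genes, had 0 of 32 and 0 of 15 past the fold in any pair. Cenpa, at 387, 389 and 414 CPM, and the kinetochore motor Cenpe, at 368, 381 and 395, were examples. Cks2, a Cdk1-binding subunit, was at 690, 718 and 613 CPM, and Bub1b of the spindle checkpoint at 200, 167 and 188. Ube2s, which extends ubiquitin chains for the anaphase-promoting complex, was highest in p53 AD/- at 1425, 2083 and 1481 CPM, and Espl1, the separase that cuts cohesin, lowest at 36.7, 19.7 and 36.3.

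Tubulins set the spindle list apart. Of 33 kinesin and spindle genes, 6 were higher and 1 lower past 1.5-fold in p53 AD/- than p53+/-, and 5 of the 6 were tubulins. Beside these, 3.3% of all genes tested were higher and 14.5% lower. In the quartile of shortest transcripts, 7 of 32 mitosis genes were higher past 1.5-fold in this pair, beside 154 of 2062 of all genes. The part of transcript length in the tubulin values was not tested. Tubb4b stood at 532, 1059 and 628 CPM in p53+/-, p53 AD/- and p53-/-, Tubb5 at 1423, 2196 and 1725, and Tuba1b at 990, 1622 and 1363. Tuba1c was at 84.6, 141 and 141 CPM, so it was 0.74 log2 units higher in both p53 AD/- (0.61 to 0.86) and p53-/- (0.63 to 0.85) than in p53+/-. The sixth gene was Kpna2, an importin, at 109, 176 and 100 CPM, and the lower one Numa1, which gathers microtubules at spindle poles. Among mitotic cells with at least 1% Malat1 only, Tubb4b was still 0.64 log2 units above p53+/-, whereas Tuba1c was at 0.25 and Tuba1b at 0.29. This setting left out 47.0%, 49.4% and 36.4% of mitotic cells in p53+/-, p53 AD/- and p53-/-. The median Malat1 share lay under 1% in the low group and above it in the high group. So wherever this setting is used, the mix of low, middle and high cells also changes. Tubulin genes also have close relatives, between which reads can be split.

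Of 30 genes of condensin, cohesin and chromosome structure, 1 was higher and 4 lower past 1.5-fold in p53 AD/- than p53+/-, 0 differed between p53-/- and p53+/-, and 0 were higher and 5 lower in p53 AD/- than p53-/-. Mki67, a gene of the rule, was 1 of the 4. These shares of lower genes are close to or under the 14.5% and 22.7% of all genes. Single regulators and members low in p53 AD/- were as follows. The transcription factor Foxm1 was at 48.6, 32.3 and 51.5 CPM, the MuvB subunit Lin54 at 24.3, 14.8 and 23.7, and the phosphatase Cdc25a at 60.4, 40.2 and 68.9. The condensin II subunit Ncapg2 was at 150, 83.8 and 163 CPM, the cohesin release factors Pds5a and Pds5b at 140, 78.7 and 140 and at 95, 61.2 and 100, and the condensin I subunit Ncapd2, which passed the fold only against p53-/-, at 136, 93.1 and 159. With TMM scaling Foxm1, Cdc25a and Pds5b no longer passed 1.5-fold against p53+/-, while Ncapg2 and Pds5a passed it in every setting tried. H2afx, a histone variant that marks DNA breaks, was higher in p53 AD/- at 749, 1165 and 804 CPM.

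**Figure D4:**
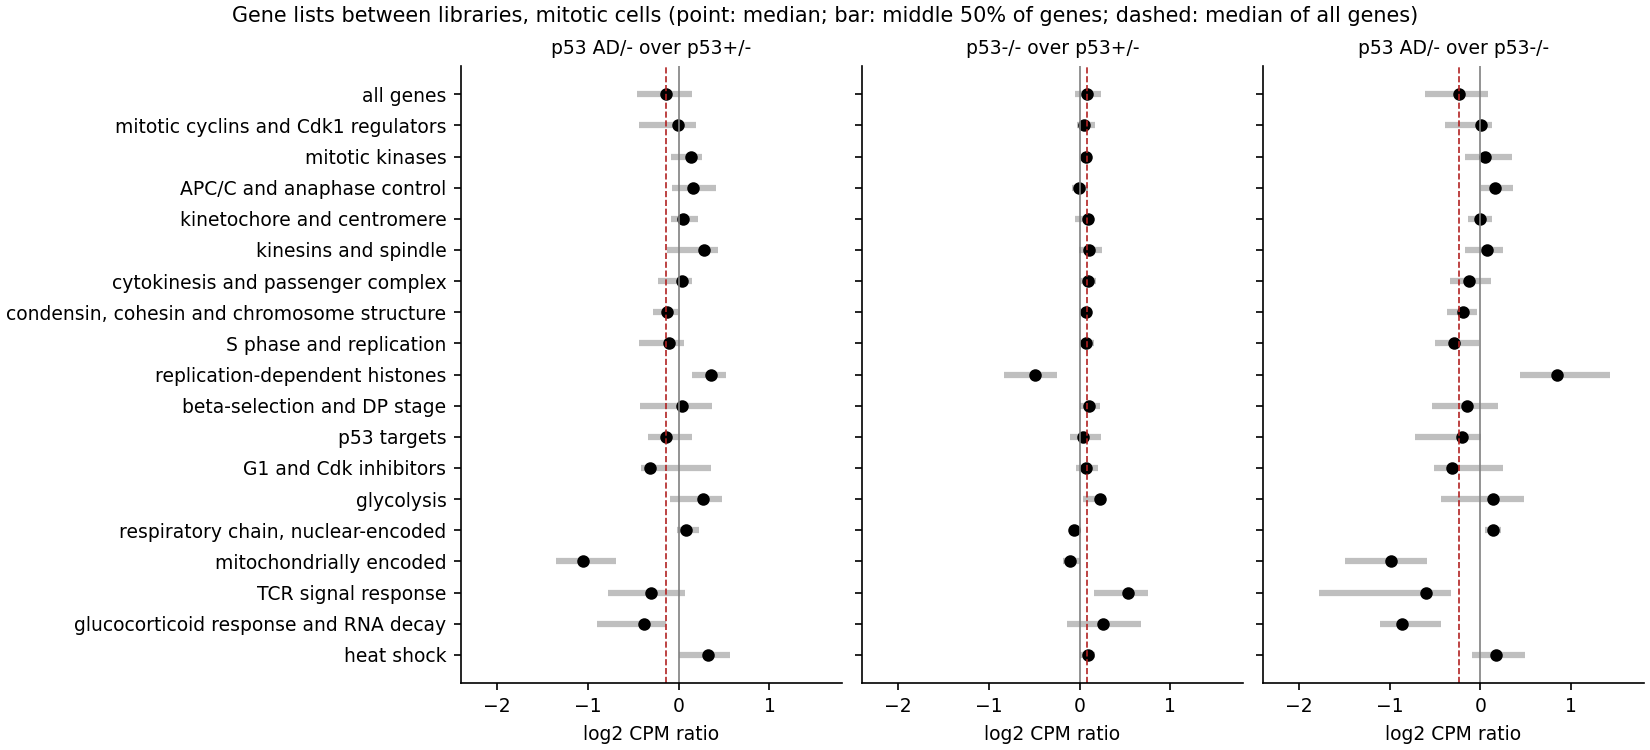
Median log2 CPM ratio (point) and the middle 50% of genes (bar) of each gene list in mitotic cells for 3 pairs of libraries, with the median of all genes as a dashed line. Mitosis lists lie between -0.19 and 0.28, whereas histone genes lie at 0.35, -0.49 and 0.85 and mitochondrially encoded genes at -1.05, -0.11 and -0.99.

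Few replication genes passed the fold. Of 52 S-phase genes, 0 were higher and 4 lower past 1.5-fold in p53 AD/- than p53+/-, 2 higher and 0 lower in p53-/- than p53+/-, and 0 higher and 8 lower in p53 AD/- than p53-/-. The lower shares lie under the 14.5% and 22.7% of all genes. Rpa3, the small subunit of the single-strand DNA-binding protein RPA, was at 192, 51.1 and 169 CPM, so p53 AD/- was 1.91 log2 units lower than p53+/- (1.75 to 2.07 lower), and non-cycling cells showed -1.43. Mcm7, a subunit of the replicative helicase, was highest in p53-/- at 205, 218 and 362 CPM. Pcna, the sliding clamp, was at 470, 344 and 468 CPM.

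Histone genes differed in both directions. In p53-/- 25 of 58 were lower past 1.5-fold than in p53+/- and 0 were higher, and in p53 AD/- 14 of 57 were higher than in p53+/- and 1 was lower. Of all genes, 0.935% were lower and 3.21% higher in p53-/- than p53+/-, and 3.3% higher and 14.5% lower in p53 AD/- than p53+/-. Hist1h2ap, which encodes histone H2A, was at 11640, 22487 and 2796 CPM, and Hist1h3b, of the H3 class, at 456, 744 and 121. Other abundant members lay closer together: the linker histone Hist1h1b was at 3527, 4329 and 3162 CPM and Hist1h4d at 2959, 4233 and 2655. Hist1h2af ran against the list, at 111, 50.6 and 121 CPM. The replication-dependent histone transcripts summed to 33090, 51043 and 17623 CPM. Non-cycling cells showed the same order for Hist1h2ap (0.55, -2.30 and 2.85 log2 units for the 3 pairs). Histone genes are near-identical copies of one another, so single members are uncertain.

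At equal depth, Cd4 detection in mitotic cells lay between that of early double negative and of non-cycling cells. The rule itself asks for Cd8 and limits Il2ra, so this does not place the cells at a stage. At 3000 UMIs per cell, Cd4 was detected in 34.5%, 27.0% and 32.3% of mitotic cells and in 26.5%, 27.0% and 27.7% of S-phase comparison cells, against 64.7%, 49.9% and 62.6% of non-cycling cells. In early double negative cells, with at least 3 UMIs of Il2ra and none of the Cd8 genes, the share was 5.66% (3 of 53), 0 of 17 (upper limit 19.5%) and 2.53% (2 of 79). Before thinning Cd4 was detected in 71.7%, 64.3% and 66.9% of mitotic cells and in 71.4%, 59.3% and 70.4% of non-cycling cells. For the recombinase gene Rag1 these shares were 91.2%, 79.7% and 88.0% of mitotic and 71.1%, 56.7% and 66.3% of non-cycling cells. At 3000 UMIs Rag1 was detected in 61.0%, 46.9% and 57.5% of mitotic and 69.1%, 53.6% and 62.9% of non-cycling cells. The order of mitotic and non-cycling cells for Rag1 thus reversed at equal depth. Ptcra, the pre-TCR alpha chain of beta-selection, was detected in 13.2%, 19.1% and 12.1% of thinned mitotic cells, against 6.88%, 5.33% and 5.36% of non-cycling cells. Median depths before thinning were 13899.5, 11298 and 11814 UMIs in mitotic and 3632, 3715 and 3743 in non-cycling cells.

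Among 48 genes of beta-selection and the double positive stage, 3 were higher and 7 lower past 1.5-fold in p53 AD/- than p53+/- (46 with enough UMIs), 3 higher and 1 lower in p53-/- than p53+/-, and 4 higher and 11 lower in p53 AD/- than p53-/-. The lower shares are close to the 14.5% and 22.7% of all genes, so the members below are given as single genes and not as a change of the list. Notch1, the receptor that drives early T cell development, was at 77.0, 31.3 and 91.6 CPM in p53+/-, p53 AD/- and p53-/-, detected in 387 of 685, 161 of 520 and 666 of 1181 cells, and was 1.30 log2 units lower in p53 AD/- than p53+/- (1.09 to 1.51 lower). Hes1, a Notch target, showed another order, at 9.68, 12.3 and 41.1 CPM, and was 2.08 log2 units higher in p53-/- than p53+/- (1.8 to 2.38). It was carried by 36, 32 and 124 cells, of which the top 5 held 51.8%, 47.8% and 18.3% of its UMIs, and across the low, middle and high groups of p53-/- it went from 51.6 to 51.0 to 10.9 CPM. Without cells of other lineages its difference was 2.39, and in non-cycling cells it was 1.49. Myb, needed for double positive cells to survive, was at 251, 156 and 326 CPM. Cd8a was highest in p53 AD/- at 485, 847 and 527 CPM, but it is a gene of the rule. Ptcra, which transmits the beta-selection signal, was at 56.7, 97.9 and 50.1 CPM, while Notch3, the transcription factors Runx1 and Tcf12 were lower in p53 AD/- than p53+/-, by 0.77, 0.80 and 0.73 log2 units. Also low there were Slc7a5, an amino acid carrier, at 8.66, 3.89 and 7.64 CPM, and Bcl6, a repressor, at 18, 10.3 and 17.4.

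Targets of p53 had medians near those of all genes. Of the list's measured members, 1 of 27 was higher and 3 lower past 1.5-fold in p53 AD/- than p53+/-, 0 of 28 in p53-/- than p53+/-, and 1 higher and 5 lower of 28 in p53 AD/- than p53-/-, with medians of -0.14, 0.04 and -0.21. The lower counts are no larger a share than the 14.5% and 22.7% of all genes. Cdkn1a was the higher one, at 3.48, 9.79 and 4.13 CPM from 41, 73 and 73 UMIs in 28, 46 and 45 cells, and was 1.49 log2 units higher in p53 AD/- than p53+/- (0.92 to 2.08). At 3000 UMIs it was detected in 0.880% (0.324 to 1.90), 2.70% (1.49 to 4.49) and 0.679% (0.294 to 1.33) of mitotic cells, 0.341%, 0.444% and 0.462% of non-cycling cells, and 18.9%, 17.6% and 15.2% of the early double negative cells. So it was a rare transcript in mitotic cells of every genotype. Among mitotic cells with at least 1% Malat1, Cdkn1a was 0.40 log2 units above p53-/- in place of 1.25. Lower in p53 AD/- than p53+/- were Pidd1, a death-domain protein, at 11, 4.16 and 9.17 CPM, Trp53inp1 at 91.6, 49.4 and 85.3, and the apoptosome scaffold Apaf1 at 19.6, 12.7 and 23.1. Of 17 genes of G1 and its inhibitors, Cdk6 was at 84.2, 33.8 and 83.0 CPM, and its partner Ccnd3, the main D cyclin of dividing thymocytes, at 638, 993 and 685.

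**Figure D5:**
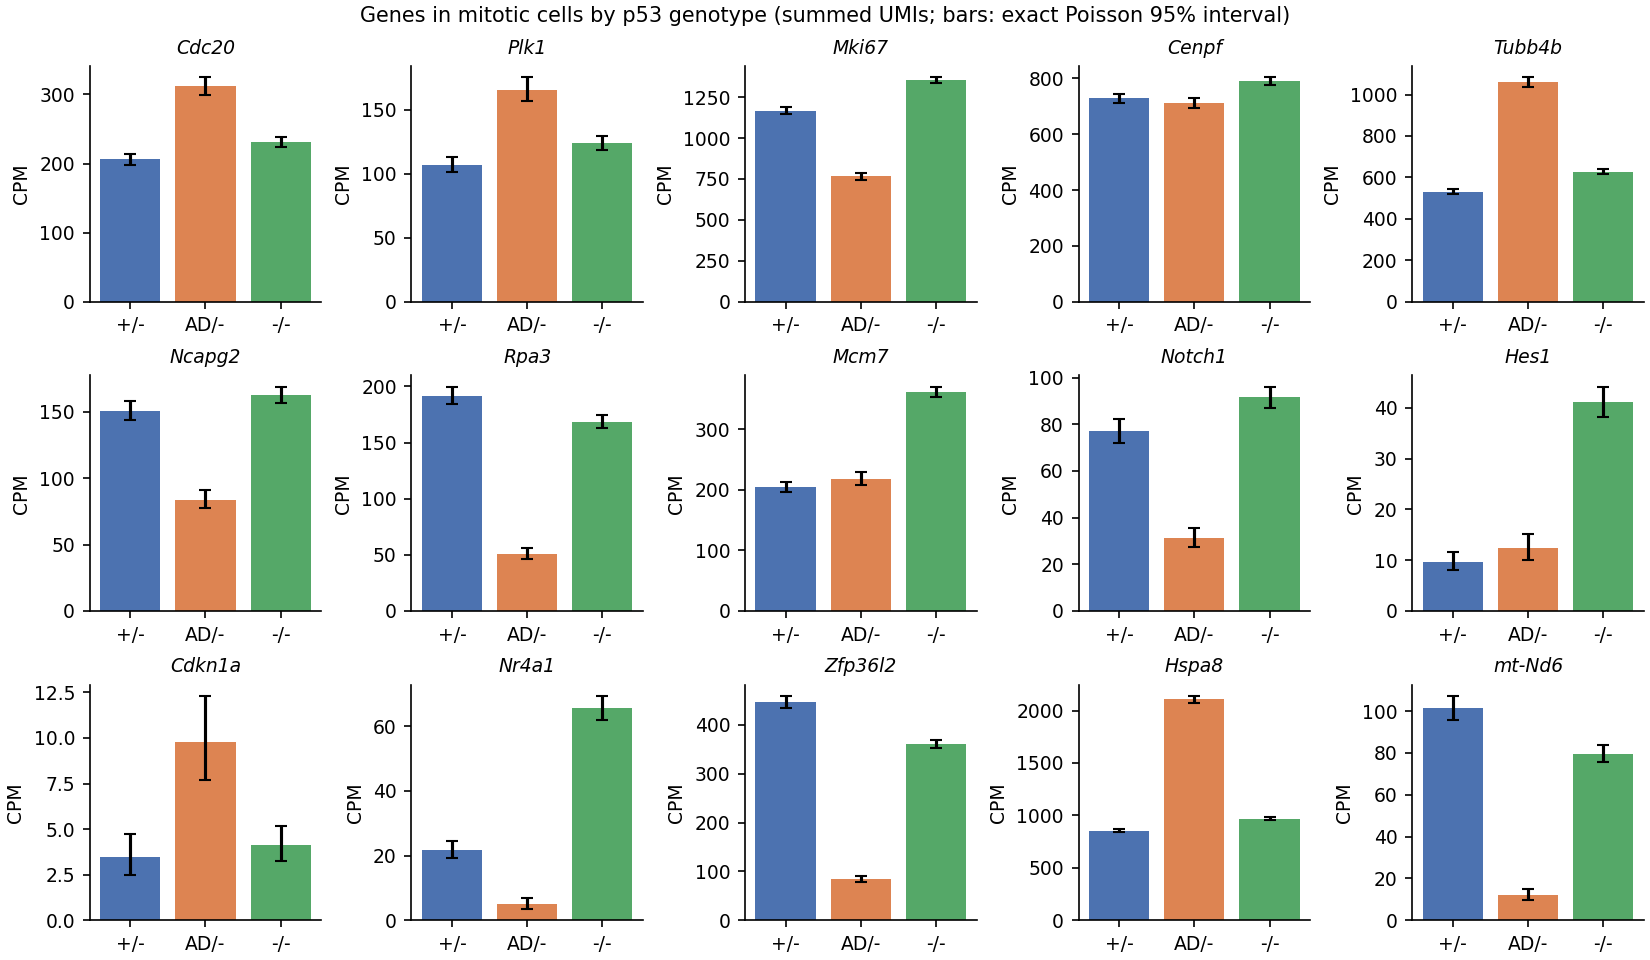
CPM of 15 genes in summed mitotic cells of each library, with bars from 0 and exact Poisson 95% intervals. Tubb4b, Cdc20, Plk1, Cdkn1a and Hspa8 are highest in p53 AD/-, Rpa3, Ncapg2, Notch1, Zfp36l2 and mt-Nd6 lowest there, and Hes1, Nr4a1 and Mcm7 highest in p53-/-.

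Energy genes split by genome. Of 13 mitochondrially encoded genes, 12 were lower past 1.5-fold in p53 AD/- than p53+/- and 9 than p53-/-, while 0 differed between p53-/- and p53+/-. mt-Nd6, a complex I subunit and the one encoded on the light strand, was at 101, 12.1 and 79.6 CPM, mt-Nd3 at 835, 221 and 837, and mt-Atp6 of the ATP synthase at 6603, 3799 and 5796. Of 76 nuclear genes of the respiratory chain, 0, 0 and 1 passed the fold in the 3 pairs, beside 17.8%, 4.14% and 25.2% of all genes. Of the glycolysis list, 4 of 15 were higher and 0 lower in p53 AD/- than p53+/-: Gapdh at 1340, 2190 and 1568 CPM, enolase Eno1 at 152, 264 and 143, Ldhb at 184, 311 and 185, and pyruvate kinase Pkm at 159, 266 and 191. Among mitotic cells with at least 1% Malat1, Gapdh, Ldhb and Pkm no longer passed 1.5-fold, and Gapdh and Pkm also fell short after thinning. Eno1 passed it in every setting tried. In non-cycling cells, mitochondrially encoded genes summed to 43181, 33113 and 38633 CPM and the glycolysis list to 2127, 3601 and 2340 CPM. So p53 AD/- was also lowest in the former and highest in the latter there, and neither difference was particular to mitotic cells. Hexokinase Hk2 was highest in p53-/-, at 5.78, 4.83 and 12.4 CPM. Of 27 genes of nucleotide and one-carbon synthesis, Pfas and Cad, which build purines and pyrimidines, and Mthfd1l were the 3 lower in p53 AD/- than p53+/-, with 0 higher. Of all genes tested in this pair, 14.5% were lower and 3.3% higher, so this lower share is under that of all genes.

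Chaperones were higher in p53 AD/- for 3 of 14 members against either library, beside 3.3% of all genes against p53+/- and 2.46% against p53-/-. Hspa8, the constitutive Hsc70, was at 854, 2107 and 969 CPM, 1.30 log2 units above p53+/- (1.27 to 1.34), its helper Hsph1 at 28.7, 55.4 and 28.2, and the Hsp90 activator Ahsa1 at 85.4, 146 and 83.8. In non-cycling cells Hspa8 was 0.99 log2 units above p53+/-. Hsp90ab1, the most abundant member, was at 2097, 2071 and 2488 CPM and did not pass the fold.

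Several immediate-early genes of T cell receptor (TCR) signalling were highest in p53-/- and lowest in p53 AD/-. Of 21 such genes, 10 were higher and 1 lower past 1.5-fold in p53-/- than p53+/-, 0 higher and 11 lower in p53 AD/- than p53-/-, and 1 of 18 higher and 5 lower in p53 AD/- than p53+/-. Of all genes, 3.21% were higher in p53-/- than p53+/-, and 22.7% and 14.5% lower in p53 AD/- than p53-/- and p53+/-. Nr4a1, a nuclear receptor induced by TCR signals, was at 21.7, 4.96 and 65.6 CPM, detected in 166, 36 and 562 cells. Dusp5, a phosphatase of ERK, was at 41.7, 18.8 and 135 CPM, Junb of the AP-1 factor at 83.4, 56.2 and 192, and Nr4a3 at 3.65, 2.15 and 15.3. Non-cycling cells ran the same way, with Nr4a1 at -1.23, 1.54 and -2.77 log2 units for the 3 pairs. Cd69, an early activation receptor, was the 1 lower member, at -0.84 for p53-/- over p53+/-.

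Members of the glucocorticoid response and RNA decay list did not share 1 order, and some were highest in p53+/-. Against p53+/-, 0 of 14 were higher and 5 lower in p53 AD/-, 5 of 17 were higher and 1 lower in p53-/-, and 11 of 17 were lower in p53 AD/- than p53-/-. Beside these, 14.5% of all genes were lower in p53 AD/- and 3.21% higher in p53-/- than p53+/-, and 22.7% lower in p53 AD/- than p53-/-. Zfp36l2, an RNA decay factor that curbs thymocyte proliferation, was at 447, 84.2 and 361 CPM, 2.41 log2 units lower in p53 AD/- than p53+/- (2.29 to 2.53 lower). Non-cycling cells showed -2.44 for it, so the difference was not particular to mitotic cells. Bcl2l11, the death inducer Bim, was at 43.7, 22.1 and 63.5 CPM, and the chemokine receptor Cxcr4 at 47.0, 20.8 and 41.4. Tsc22d3, the classic glucocorticoid-induced gene Gilz, was the 1 lower member in p53-/- than p53+/-, by 0.83 log2 units.

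Genes with at least 100 UMIs over a pair were also ranked by size, without the cells that carried RNA of other lineages. Mitochondrially encoded, ribosomal protein, haemoglobin, T cell receptor, immunoglobulin and unnamed genes (Gm, Rik and accession symbols) were left out of this ranking. The highest in p53 AD/- over p53+/- were Hmga1b (1.84), Cdkn1a (1.61) and Bex1 (1.60), and the lowest Zfp36l2 (-2.43), Nr4a1 (-2.16), Tmem108 (-2.08) and Rpa3 (-1.91). For p53-/- over p53+/- the highest were Icos, a costimulatory receptor, at 3.0 from 97 against 8 UMIs, and Hes1 (2.39), and low ones were Hist1h2ap (-2.07) and Hist1h3b (-1.93). For p53 AD/- over p53-/- the highest were Hist1h2ap (3.0) and Hist1h3b (2.62). The lowest were Mroh2a at -3.93 (-6.23 to -2.34) from 3 against 107 UMIs, S100a9 at -3.86 (-6.16 to -2.27) from 3 against 102, Icos at -3.78 (-6.09 to -2.19) from 3 against 97, and Nr4a1 at -3.77 from 36 against 1151. S100a9 thus stayed among the lowest after those cells were left out. Hmga1b, a copy of the chromatin gene Hmga1, was at 11.5, 42.1 and 9.39 CPM, and as a near-identical copy it is uncertain.

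Resting cells of the same libraries differed about as often. Past 1.5-fold either way lay 17.8%, 4.14% and 25.2% of genes tested in mitotic cells for the 3 pairs, and 15.5%, 6.09% and 21.2% in non-cycling cells. In non-cycling cells these were 5.96% higher and 9.49% lower for p53 AD/- over p53+/-, 4.47% and 1.62% for p53-/- over p53+/-, and 4.99% and 16.2% for p53 AD/- over p53-/-. Both kinds of cell come from the same 3 libraries.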

How the data were processed

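Thymus cells were measured by droplet single-cell RNA sequencing in 3 libraries, 1 for each genotype, grouped by their genotype label. Each deposited table holds raw UMI counts by gene and barcode. The authors ran Cell Ranger 4.0.0 to make it, per the file headers, and the submitters' processing notes name GRCm38. The annotation, the chemistry and the use of strand were not given in the sources used here. The 3 tables cover 32285 genes and 25077 barcodes, and 0 columns went unassigned.

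The cells and gene lists were chosen with earlier results of these data known. Raw UMIs of the mitotic cells of each library were summed, divided by their total and given as CPM with exact Poisson intervals. Ratios are log2 of CPM, with counts under 3 set to 3 and exact conditional binomial intervals. Calls need 1.5-fold and at least 100 UMIs over the pair, and list medians use genes with at least 30. No p-value is given, since 1 library per genotype leaves no replicate. Shares carry exact Clopper-Pearson intervals. Non-cycling cells met the lineage conditions with 0 UMIs of Mki67 and Top2a, a mitotic sum of 0 and at most 1 UMI of the 5 S-phase genes. No doublets were removed in the main analysis, and removing the barcodes with the highest Scrublet scores was an alternative. UMI counts remove PCR copies but not free RNA. The genes named were those of the rule and the markers given, Trp53, the 3 with most UMIs and up to 4 past the fold per list and pair, and the 8 highest and lowest per pair. A few further members named in the text were chosen after their values were seen: Numa1, Ptcra, Notch3, Runx1, Tcf12, Cd69, Tsc22d3, the genes of the low, middle and high groups, and those ranked without cells of other lineages. Transcript lengths are of the longest GENCODE M21 transcript, matched for 99.6% of genes. Promoters were matched by symbol for 127 of 157 mitosis genes. Python 3.11.15 (scipy 1.17.1, scanpy 1.11.5) and, for TMM factors only, edgeR 4.0.16 in R 4.3.3 were used, and the scripts were tested on simulated data. Alternatives varied the filters, the mitotic sum, the Cd8 condition, depth, Malat1 share, scaling and minimum counts. A result that the naming rule would include is not reported here.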

Additional observations from a re-analysis of the deposited data

Results flagged for a closer look

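Some genes passed 1.5-fold in opposite directions in mitotic and in non-cycling cells of the same 2 libraries, with and without the cells that carried RNA of other lineages. None of these differences was tested. For p53 AD/- over p53+/-, Ccdc90b was at -0.84 log2 units in mitotic cells (50 against 141 UMIs) and 0.69 in non-cycling cells (91 against 84). Hist1h3b, a histone H3 gene, was at 0.71 in mitotic cells (5546 against 5371 UMIs) and -1.38 in non-cycling cells, from 21 against 81 UMIs. For p53 AD/- over p53-/-, Dtl, which targets replication proteins for destruction, was at -0.71 in mitotic cells (482 against 1869 UMIs) and 0.94 in non-cycling cells (296 against 196). Ccdc90b was at -0.67 and 0.77, Serpinb6b at -1.02 (22 against 106 UMIs) and 0.65, and Ccnb1ip1 at -0.65 (98 against 365 UMIs) and 0.71.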

How the results depend on the processing

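No paired analysis was possible because each genotype has 1 library, and no replicate could be left out. The share of mitotic cells became 10.9% in p53 AD/- and 13.9% in p53-/- with at least 1000 genes per cell, 10.3% in p53+/- and 13.9% in p53-/- under 5% mitochondrial UMIs, 7.30% and 10.9% in p53+/- and p53-/- with a mitotic sum of at least 8, and 7.41%, 13.1% and 13.3% after thinning to 3000 UMIs. At equal depth it was 11%, 17.6% and 19.0% with a mitotic sum of 2, and 4.23%, 5.07% and 6.84% over all filtered cells. The mitotic part of cycling cells became 80.3% in p53 AD/- and 77.9% in p53-/- with a sum of at least 4, 62.4%, 70.9% and 65.3% with at least 8, and 47.1%, 58.4% and 52.5% after thinning. Counts of genes past 1.5-fold, higher and lower, were 128 and 243 for p53 AD/- over p53+/-, 145 and 55 for p53-/- over p53+/-, and 115 and 631 for p53 AD/- over p53-/- after thinning, where fewer UMIs left fewer genes to test. They were 105 and 653 for the first pair and 139 and 1293 for the last among mitotic cells with at least 1% Malat1, 496 and 773, and 579 and 1124 with TMM factors, and 580 and 683, and 662 and 1020 with median-of-ratios factors. With at least 300 UMIs over the pair they were 145 and 622, 123 and 41, and 132 and 1227 for the 3 pairs, and with at least 1 UMI 924 and 2571, 1396 and 904, and 1104 and 3555. The median of mitosis genes was 0.16, -0.0019 and 0.20 with TMM factors, 0.19, -0.0043 and 0.23 with median-of-ratios factors, 0.22, -0.0095 and 0.21 net of the transcript length quartile, and -0.00022 for p53-/- over p53+/- in cells with at least 1% Malat1. Reversed were the B cell and dendritic markers (0.58 and 0.091 in the pairs with p53 AD/- first) and the mature thymocyte markers (0.085 for p53 AD/- over p53+/-) without the Cd8 condition, Icos (1.67 without it and 0.19 with at least 1% Malat1) for p53 AD/- over p53+/-, and, after thinning, Fanci for p53 AD/- over p53+/- (0.33) and Egr1 for p53 AD/- over p53-/- (0.34). The cause of these shifts was not tested. Of 179 differences of named genes past 1.5-fold, 99 passed it in every setting tried. Removing cells of other lineages or the highest Scrublet scores moved no count, share or mitosis median beyond the limits used. The length correction, the cells of other lineages and the further equal-depth settings were added after the data were seen.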

Other observations

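Some lists of the mitotic cells have no place in the comparisons above. In the high over the low group of mitotic cells, p53 targets had medians of 0.47, 0.71 and 0.60 log2 units in p53+/-, p53 AD/- and p53-/-, and genes of beta-selection and the double positive stage 0.69, 0.80 and 0.70. Glycolysis genes had medians of -0.44, -0.62 and -0.55 and chaperones -0.43, -0.60 and -0.69, with 9 of 13 and 9 of 14 lower in the high group of all 3 libraries. Over all genes the medians were 0.15, 0.12 and 0.15 log2 units, and 2109 of 7549 genes were lower in the high group of all 3 libraries. The importin gene Kpna2 was 2.05, 2.33 and 2.10 log2 units higher in the high group.

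Of 22 genes of the citric acid cycle, 0 were higher and 1 lower past 1.5-fold in p53 AD/- than p53+/-, 0 differed between p53-/- and p53+/-, and 2 were lower in p53 AD/- than p53-/-, with list medians of 0.12, 0.16 and -0.05. Both lower shares are under the 14.5% and 22.7% of all genes. Aco1, the cytosolic aconitase that also binds iron-responsive RNA, was at 10.4, 5.50 and 9.45 CPM, and Ogdh, a subunit of the oxoglutarate dehydrogenase, at 58.4, 43.2 and 66.2. Of 5 nuclear noncoding RNAs, 2 were lower in p53 AD/- than either other library. Xist, which coats the silent X chromosome, was at 1236, 706 and 1101 CPM and its antisense partner Tsix at 104, 31.9 and 168. The sources do not say whether counting used strand, so these overlapping genes are uncertain. Of 17 genes of G1 and its inhibitors, 2 were higher and 2 lower in p53 AD/- than p53+/-, 1 was higher in p53-/- than p53+/-, and 3 were lower in p53 AD/- than p53-/-. The lower shares are again under the 14.5% and 22.7% of all genes, and 3.3% and 3.21% of all genes were higher in the pairs over p53+/-. Ccnd2, a D cyclin of early thymocytes, was at 8.15, 5.37 and 13.7 CPM, E2f4, a repressor of cell cycle genes, at 65.1, 99.0 and 81.3, and Klf2, a factor of mature T cells outside that list, at 9.43, 20.4 and 12.2.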
